A study of Mus musculus with 8 samples.

Results

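The 33 genes described here encode enzymes that feed pyruvate into the citrate cycle, enzymes of the cycle, and enzymes that break down branched-chain amino acids (leucine, isoleucine and valine). Not every enzyme of the cycle is included: succinate dehydrogenase and malate dehydrogenase (Mdh2) are given with other pathway genes below. They were taken from a list of symbols, chosen with earlier results of these data known. The list holds 7 genes of the pyruvate dehydrogenase complex and its regulators, 12 of the citrate cycle and 14 of branched-chain amino acid breakdown. All 33 had a microarray probe set (a group of short probes for one transcript) that names them alone, among 18193 genes with such a probe set, and all 33 passed the limit on low signals that left 12318 genes for testing. The study compared cardiac Purkinje cells, the fast-conducting myocytes of the distal conduction system, with working ventricular myocytes, and asked which genes distinguish them. There were 4 Purkinje arrays and 4 ventricular arrays from 4 hearts of adult male mice, and the labels number the arrays of each group 1 to 4 without saying that a number marks a heart. Arrays with the same number were taken as one heart, and every value within a heart rests on that. Animals of both groups carried the same 3 alleles, the conduction system reporter Cntn2-EGFP, a-MHC-Cre and floxed-tdTomato, on a mixed background of CD1, C57/B6 and 129S1. The a-MHC promoter is active in cardiomyocytes at large and the Cntn2 reporter in the conduction system, and cells were sorted by fluorescence after enzymatic digestion of the perfused heart; the gates are not given in the sources used here.

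Pyruvate dehydrogenase commits carbon from glucose and lactate to oxidation as acetyl-CoA, and it is switched off by its kinases and on again by its phosphatases. The citrate cycle oxidises acetyl-CoA in the mitochondrial matrix and hands electrons to the respiratory chain, which supplies most of the ATP of a beating heart. Branched-chain amino acids are first transaminated, then committed to breakdown by a complex built like pyruvate dehydrogenase, and the resulting acyl-CoA chains are cut to acetyl-CoA, or to propionyl-CoA that enters the cycle as succinyl-CoA.

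The signals are linear MAS5 values with an equal trimmed mean of 150.001 on all 8 arrays, so a signal is relative to its own array. Median signals were 36.1 to 42.9 on the Purkinje arrays and 28.2 to 32.3 on the ventricular arrays. Of 10 conduction system markers tested, 9 were higher in Purkinje cells, and of 20 cardiomyocyte markers 2 were lower (Ckm and Mybpc3, named after their values were seen) and none was higher, with a summed signal of 143834 to 152853 on Purkinje arrays and 145118 to 178065 on ventricular arrays. Markers of other cell types were also higher on Purkinje arrays, 11 of 12 tested for endothelium, 8 of 11 for fibroblasts and 8 of 9 for smooth muscle and pericytes, where Des was lower. Their values stand beside the results below. In RNA from sorted cells, fewer cells of a type and less of a transcript per cell cannot be told apart.

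Signals of nearly all of these metabolic genes were lower in Purkinje cells than in ventricular myocytes, by modest amounts. In limma's moderated test across all 12318 genes, with the heart as a block and Benjamini-Hochberg adjustment at 0.05, 27 of the 33 were lower and none was higher, also at an unadjusted p under 0.05. All 14 branched-chain genes passed, as did 9 of the 12 citrate cycle genes and 4 of the 7 pyruvate dehydrogenase genes. The succinate dehydrogenase subunit genes and Mdh2 are not among the 12, and none of them passed. Over all tested genes 7.48% were lower by this rule and 9.64% were higher. The share was 81.8% of the 33, against 16.8% of the 4948 genes at least as bright as Bckdhb, the dimmest of them. Of those 4948 genes 8.25% were higher. Because the 33 were chosen with earlier results of these data known, these shares describe the list and do not test it. The 27 genes had between 42.2% and 81.0% of the ventricular signal. The median difference over the 33 (Purkinje minus ventricular, log2) was -0.54, against 0.05 over all tested genes.

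The calls depended on how the spread between arrays was modelled. Without the heart as a block 10 of the 33 were lower (Pdhx, Dld, Sucla2, Bcat2, Bckdhb, Dbt, Ivd, Auh, Aldh6a1 and Pcca), where 1.02% of all genes were. With quantile normalization 22 of the 33 were lower, where 5.68% of all genes were, and with median centring 32, where 30.9% were. None passed limma without a mean-variance trend, which lets the assumed spread depend on the signal level (0.00812% of all genes were lower). None passed the authors' paired test of linear signals after adjustment over all genes. At an unadjusted p under 0.05, 25 of the 33 were lower without the trend, where 1177 of all 12318 genes were. By the paired test 26 of the 33 were lower at that threshold, where 1303 of the 12318 were.

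**Figure D1:**
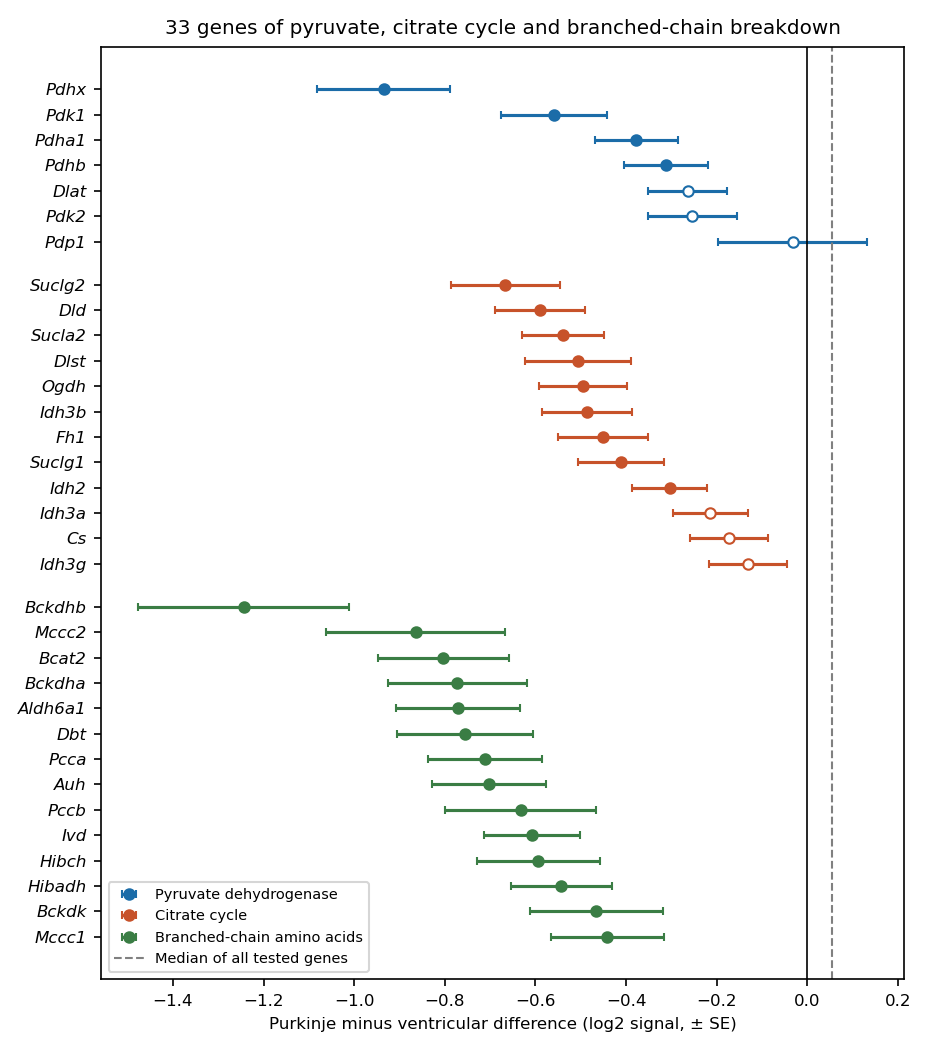
Difference in signal of the 33 genes (x axis, Purkinje minus ventricular, log2, limma with the heart as a block, bars ± SE, 4 hearts), grouped by pathway. Filled points passed an adjusted p of 0.05, open points did not, and the dashed line is the median of all tested genes at 0.05; all 33 points lie left of 0.

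Within hearts the direction was the same in most pairs of arrays. The Purkinje array was the lower one in 4 of 4 hearts for 30 of the 33 genes (90.9%), against 17.2% of all tested genes and 33.1% of those at least as bright as Bckdhb. The exceptions were Pdk2, Idh3g and Pdp1. For 21 of the 33 every Purkinje array was below every ventricular array, against 6.41% of all tested genes and 13.2% of those at least as bright as Bckdhb. The size differed between hearts, with a median over the 33 of -0.26 in heart 1, -0.53 in heart 2, -0.61 in heart 3 and -0.66 in heart 4. In heart 1 the difference was the least negative of the 4 for 28 genes.

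**Figure D2:**
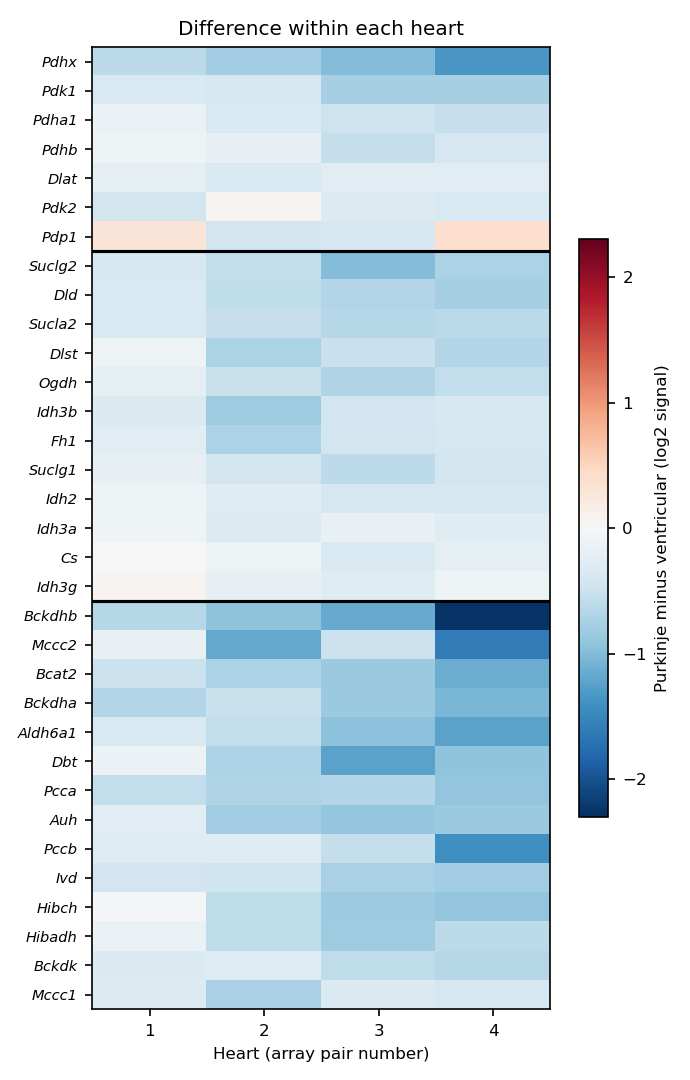
Purkinje minus ventricular difference (colour, log2 signal) of each gene (rows, in the order of the pathways, separated by black lines) within each of the 4 hearts (columns). Blue cells are lower on the Purkinje array; heart 1 has the least negative value for 28 genes, and the darkest cell is Bckdhb in heart 4, at -2.25.

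Among the subunits of pyruvate dehydrogenase the largest difference was in Pdhx, which anchors the shared dihydrolipoamide dehydrogenase to the core of the complex. Pdhx had signals of 329.7, 373.1, 308.5 and 249.4 on Purkinje arrays 1 to 4, against 501.7, 646, 618.2 and 630.8 on ventricular arrays 1 to 4. The groups did not overlap, and the log2 difference was -0.93 ± 0.15 (SE; limma adjusted p = 0.00183). Pdha1, the catalytic alpha subunit of the decarboxylase, was at 3061.5, 3234, 3315 and 3186 on Purkinje arrays and 3384, 4141, 4596 and 4621 on ventricular arrays. Its partner Pdhb was at 4154, 3906, 3619 and 4156, against 4526, 4462, 5266 and 5445. Both were lower, with differences of -0.38 ± 0.09 (adjusted p = 0.0163) and -0.31 ± 0.09 (adjusted p = 0.0379), with ventricular replicate 1 the lowest ventricular array for Pdha1.

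Dlat, the acetyltransferase that forms the core, did not pass through its brightest probe set, at 2256, 2271, 2643 and 2629.5 on Purkinje arrays and 2644, 2908.5, 3117.5 and 3094 on ventricular arrays (-0.26 ± 0.09, limma adjusted p = 0.0563). Purkinje replicate 3 lay just below ventricular replicate 1, so the groups did not overlap. In the fit over all 22887 probe sets above the signal limit, another Dlat probe set gave -0.31 ± 0.09 (adjusted p = 0.0382) and one more gave -0.55 ± 0.10 (adjusted p = 0.00350).

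Of the regulators of the complex, 1 of 3 passed. Pdk1, a kinase that inactivates it, was at 849.3, 1036.5, 641.3 and 608.9 on Purkinje arrays and 1078, 1350.5, 1083 and 1028 on ventricular arrays. Within hearts it was lower in 4 of 4 (-0.56 ± 0.12, limma adjusted p = 0.00790), while the groups overlapped through Purkinje replicate 2. Its other bright probe sets gave -0.47 and -0.68, both lower at adjusted p of 0.0156 and 0.00350. Pdk2, another kinase of the complex, was at 2637, 3127, 4039 and 4177 on Purkinje arrays and 3524, 2985, 5009 and 5334 on ventricular arrays, higher on the Purkinje array in heart 2 (-0.25 ± 0.10, limma adjusted p = 0.0979). Pdp1, a phosphatase that reactivates the complex, was at 279.9, 374.4, 381.3 and 682 on Purkinje arrays and 227.6, 504.4, 495.1 and 524.9 on ventricular arrays. Its difference was -0.03 ± 0.16 (limma adjusted p = 0.920), from 0.30 and 0.38 in hearts 1 and 4 and -0.43 and -0.38 in hearts 2 and 3.

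**Figure D3:**
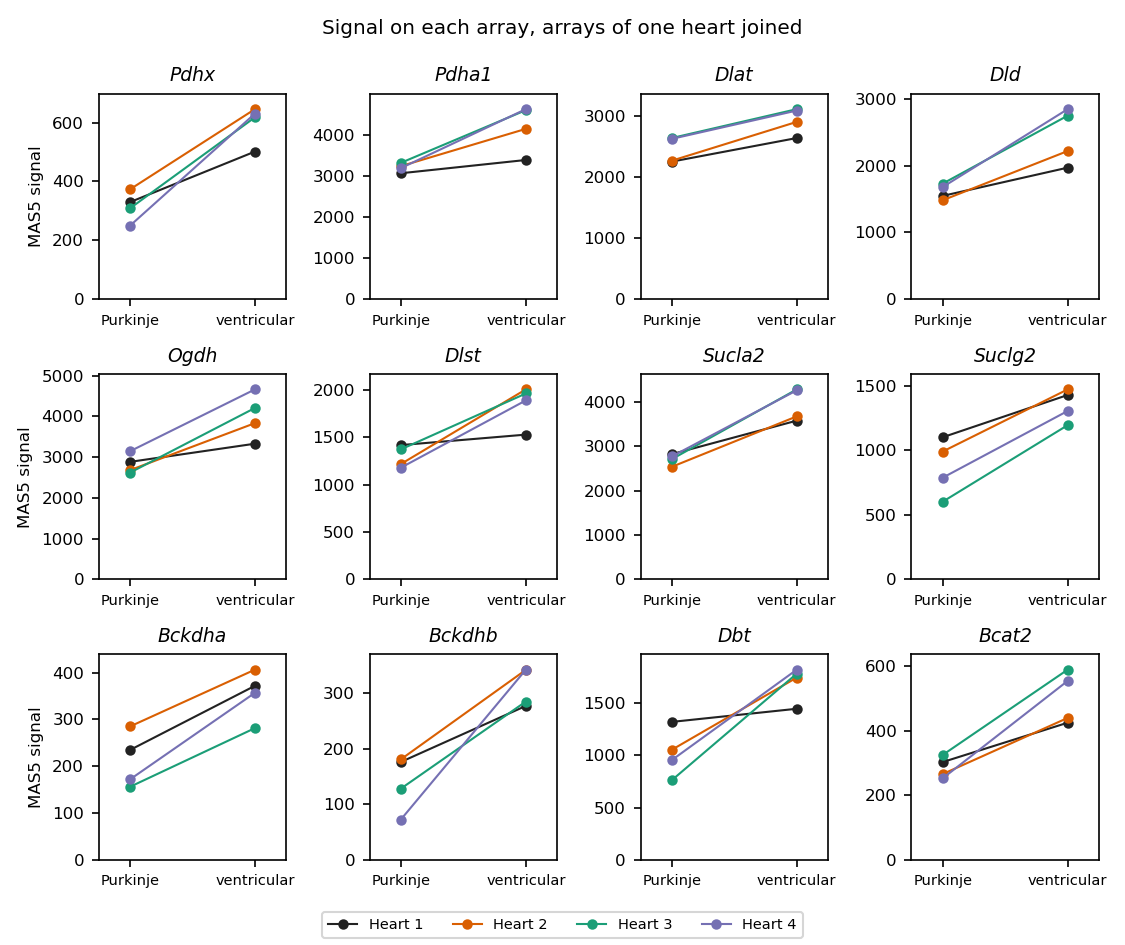
MAS5 signal (y axis, linear, from 0) on each array for 12 of the genes, Purkinje left and ventricular right, with lines joining the arrays of one heart and each panel on its own scale. Every line runs upward from Purkinje to ventricular; the gap for Dbt is smallest in heart 1 (log2 difference -0.13) and that for Bckdhb is largest in heart 4.

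In the citrate cycle the genes of 2-oxoglutarate dehydrogenase, succinate-CoA ligase and fumarase were lower, while citrate synthase did not pass. Cs, which condenses acetyl-CoA with oxaloacetate, was at 4689, 5220.4, 4699.9 and 4962.5 on Purkinje arrays and 4712, 5682.5, 6015 and 5727 on ventricular arrays. It did not pass (-0.17 ± 0.09, limma adjusted p = 0.196), and its other probe sets both gave -0.26, lower in 4 of 4 hearts, with adjusted p of 0.0467 and 0.0578.

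The NAD-dependent isocitrate dehydrogenase is built from the products of Idh3a, Idh3b and Idh3g. Idh3b was at 3568, 3199, 3043 and 2959.7 on Purkinje arrays and 4488, 5652, 4108 and 3804 on ventricular arrays, with no overlap (-0.49 ± 0.10, limma adjusted p = 0.00674). A dimmer Idh3b probe set gave 0.11 ± 0.14 and another gave -0.54 ± 0.25, neither of which passed. Idh3a, which encodes the catalytic subunit, was at 3981, 3911, 4827.5 and 4738.5 on Purkinje arrays and 4251, 4854, 5418 and 5770.1 on ventricular arrays, and did not pass (-0.21 ± 0.08, limma adjusted p = 0.0994). The third subunit gene, Idh3g, was at 4872, 4573, 4768 and 5201 on Purkinje arrays and 4661, 5220.2, 5768.5 and 5674 on ventricular arrays. It did not pass either (-0.13 ± 0.09, limma adjusted p = 0.331), and its sign turned to 0.02 after quantile normalization. Idh2, the NADP-dependent mitochondrial enzyme, was at 5160.5, 5425.5, 5714 and 6131 on Purkinje arrays and 5610.5, 6592, 7602 and 8107 on ventricular arrays. Ventricular replicate 1 lay below Purkinje replicates 3 and 4, but within each heart the Purkinje array was lower (-0.30 ± 0.08, limma adjusted p = 0.0271). A dimmer Idh2 probe set gave 0.32 ± 0.17 and did not pass.

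The 2-oxoglutarate dehydrogenase complex joins Ogdh, the decarboxylase, and Dlst, the succinyltransferase core, to Dld, the dehydrogenase that it shares with pyruvate dehydrogenase and the branched-chain complex. Ogdh was at 2884, 2679.9, 2619 and 3144 on Purkinje arrays and 3330.2, 3835, 4207 and 4663 on ventricular arrays. Dlst was at 1418, 1218, 1373 and 1179 on Purkinje arrays and 1529, 2006, 1963 and 1890 on ventricular arrays. Neither pair of groups overlapped, and the log2 differences were -0.49 ± 0.10 for Ogdh and -0.51 ± 0.12 for Dlst (limma adjusted p = 0.00569 and 0.0122). Dld was at 1545, 1480.1, 1729 and 1678 on Purkinje arrays and 1968, 2217, 2747 and 2844 on ventricular arrays. It was lower by a similar amount (-0.59 ± 0.10, limma adjusted p = 0.00271), again with no overlap.

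Succinate-CoA ligase pairs the alpha subunit Suclg1 with a beta subunit that sets its nucleotide, Sucla2 for ADP or Suclg2 for GDP. Suclg2 was at 1101, 990.2, 601.4 and 787.5 on Purkinje arrays and 1428, 1472, 1195 and 1305 on ventricular arrays. Sucla2 was at 2823, 2537, 2709 and 2771 on Purkinje arrays and 3579, 3675, 4283 and 4263 on ventricular arrays. Suclg1 was at 2598, 2492, 2295 and 2472 on Purkinje arrays and 2954, 3348.5, 3499 and 3316 on ventricular arrays. None of these groups overlapped, and all 3 genes were lower, with differences of -0.67 ± 0.12 for Suclg2 (limma adjusted p = 0.00362), -0.54 ± 0.09 for Sucla2 (0.00253) and -0.41 ± 0.10 for Suclg1 (0.0126). A second Suclg2 probe set was also lower (-0.84 ± 0.14). Fh1, the fumarase, was at 2325, 2008, 2675 and 2694 on Purkinje arrays and 2786, 3345, 3567 and 3529.5 on ventricular arrays, without overlap (-0.45 ± 0.10, limma adjusted p = 0.00965).

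Branched-chain amino acid breakdown had the largest median difference of the 3 groups, -0.71, against -0.47 in the citrate cycle and -0.31 in the pyruvate dehydrogenase group. That order between the branched-chain and the other groups held in each heart, at -0.32, -0.64, -0.83 and -0.92 in hearts 1 to 4 for branched-chain genes, -0.20, -0.53, -0.47 and -0.41 for the citrate cycle and -0.23, -0.36, -0.47 and -0.39 for the pyruvate dehydrogenase group. The groups also differed in signal level. Mean ventricular signals ran from 312.1 (Bckdhb) to 2976 (Hibadh) for branched-chain genes and from 1350 (Suclg2) to 6978 (Idh2) for the citrate cycle. In the pyruvate dehydrogenase group they ran from 438 (Pdp1) to 4925 (Pdhb). The difference between the groups was not tested, nor was the part of signal level in it.

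The pathway opens with Bcat2, the mitochondrial aminotransferase. Bcat2 was at 302.3, 265.1, 324.3 and 251.9 on Purkinje arrays and 424.3, 439.1, 588.7 and 553.9 on ventricular arrays, with no overlap (-0.80 ± 0.14, limma adjusted p = 0.00371). The committed step belongs to the branched-chain oxoacid dehydrogenase, made of the decarboxylase subunits Bckdha and Bckdhb, the acyltransferase core Dbt and the shared Dld. Bckdhb was at 176.3, 181, 128.1 and 72.3 on Purkinje arrays and 277.5, 342.6, 285.4 and 343 on ventricular arrays. This was the largest difference among the 33 genes (-1.24 ± 0.23, limma adjusted p = 0.00451), and Purkinje replicate 4 was the lowest array. Bckdha was at 234.6, 285, 155.8 and 171.6 on Purkinje arrays and 372.1, 406.7, 281.5 and 357.1 on ventricular arrays. Its groups overlapped through Purkinje replicate 2 and ventricular replicate 3, though each heart gave a lower Purkinje value (-0.77 ± 0.15, limma adjusted p = 0.00595). Dbt was at 1322, 1054, 761.8 and 954.9 on Purkinje arrays and 1448, 1748, 1785 and 1824 on ventricular arrays, without overlap (-0.76 ± 0.15, limma adjusted p = 0.00609).

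Averaged over the subunits that a complex does not share, the mean difference of the branched-chain complex was -0.92, of 2-oxoglutarate dehydrogenase -0.50 and of pyruvate dehydrogenase -0.47. In heart 4 these means were -1.41, -0.62 and -0.62, and in heart 1 they were -0.48, -0.16 and -0.28. The complexes differed in signal level too, and its part in these means was not tested. Bckdk, the kinase that inactivates the branched-chain complex, was at 268.3, 243.3, 228.5 and 222.7 on Purkinje arrays and 336.8, 298.3, 342.1 and 351.7 on ventricular arrays. It was lower as well, with no overlap (-0.47 ± 0.15, limma adjusted p = 0.0474).

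Downstream, leucine carbon passes through Ivd, the methylcrotonyl-CoA carboxylase subunits Mccc1 and Mccc2, and the hydratase Auh. Ivd, isovaleryl-CoA dehydrogenase, was at 1396, 1357, 1164 and 1188 on Purkinje arrays and 1884, 1853, 1946 and 2078 on ventricular arrays. Its groups did not overlap (-0.61 ± 0.11, limma adjusted p = 0.00303), and its second probe set gave -0.72 ± 0.10. Auh was at 933.7, 808.2, 710.2 and 674.4 on Purkinje arrays and 1118, 1410.3, 1322 and 1215 on ventricular arrays, again without overlap (-0.70 ± 0.13, limma adjusted p = 0.00364). The carboxylase subunits follow. Mccc2, the beta subunit, was at 535.4, 395.9, 659.5 and 313.7 on Purkinje arrays and 600.6, 900, 931.5 and 957.6 on ventricular arrays. Its difference was -1.18 in heart 2 and -1.61 in heart 4, but -0.17 in heart 1, and the groups overlapped through Purkinje replicate 3 (overall -0.86 ± 0.20, limma adjusted p = 0.0119). Mccc1, the biotin-carrying alpha subunit, was at 663.5, 500.9, 483.3 and 440 on Purkinje arrays and 820.5, 838.3, 607 and 575.3 on ventricular arrays, with overlap (-0.44 ± 0.12, limma adjusted p = 0.0301).

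Valine carbon passes through the hydrolase Hibch, the dehydrogenase Hibadh and the methylmalonate semialdehyde dehydrogenase Aldh6a1. Aldh6a1 was at 1374, 1349, 929.5 and 830.1 on Purkinje arrays and 1747, 1995.5, 1778 and 1954 on ventricular arrays. Hibadh was at 2525, 2144, 1698 and 1883 on Purkinje arrays and 2818, 3213, 3009.7 and 2863 on ventricular arrays. Neither gene's groups overlapped, and the log2 differences were -0.77 ± 0.14 for Aldh6a1 (limma adjusted p = 0.00344) and -0.54 ± 0.11 for Hibadh (0.00686). Hibch was at 1096, 1199, 1002.5 and 984.2 on Purkinje arrays and 1135, 1790.2, 1789 and 1848.5 on ventricular arrays. Ventricular replicate 1 lay near the Purkinje arrays, so the groups overlapped (-0.59 ± 0.14, limma adjusted p = 0.0122). Second probe sets of Hibadh and Hibch were lower too, at -0.71 ± 0.13 and -0.71 ± 0.15.

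Propionyl-CoA from valine and isoleucine is carboxylated by Pcca and Pccb. Pcca, the biotin-carrying subunit, was at 371.7, 390, 400.4 and 311.1 on Purkinje arrays and 553.3, 629.7, 637.5 and 585.5 on ventricular arrays, with no overlap and differences of -0.57, -0.69, -0.67 and -0.91 in hearts 1 to 4 (-0.71 ± 0.13, limma adjusted p = 0.00342). Pccb, which encodes the other subunit, was at 627.7, 799.9, 1148 and 769.7 on Purkinje arrays and 767.2, 972.5, 1684 and 2040.1 on ventricular arrays. The groups overlapped, with ventricular replicates 1 and 2 below Purkinje replicate 3 (-0.63 ± 0.17, limma adjusted p = 0.0225, and 0.237 without the heart as a block), with the largest difference in heart 4, at -1.41.

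Without any 1 of the 4 hearts in turn, 13 genes were lower in every fit: Pdhx, Ogdh, Dld, Sucla2, Suclg2, Bcat2, Bckdha, Bckdhb, Dbt, Ivd, Auh, Aldh6a1 and Pcca. Without heart 1 the count of lower genes was 26, and it was 14, 17 and 17 without heart 2, 3 or 4, where 8.78%, 2.25%, 2.48% and 2.74% of all genes were lower. Hearts 1 and 2 alone gave 2 lower genes, Idh3b and Sucla2, where 0.308% of all genes were lower. Hearts 3 and 4 alone gave 27, where 7.56% of all genes were lower. For the Gapdh control probe sets, whose 3′ over 5′ ratio is a sign of RNA length, that ratio was 1.24, 1.28, 1.64 and 1.72 on Purkinje arrays 1 to 4, against 1.23, 1.20, 1.51 and 1.51 on ventricular arrays 1 to 4. The same ratio for Actb was 0.763, 0.671, 0.776 and 0.709 on Purkinje arrays 1 to 4, against 0.789, 0.818, 0.706 and 0.785 on ventricular arrays 1 to 4, lower on the Purkinje array in hearts 1, 2 and 4. The part of RNA length in the size of the differences was not tested.

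Markers of other cells moved with the comparison. The endothelial list summed to 3071 to 8076 on Purkinje arrays and 1427 to 4604 on ventricular arrays, and its median difference was 0.82, 1.86, 1.43 and 0.59 in hearts 1 to 4. The fibroblast list summed to 5135 to 9847 on Purkinje arrays and 2710 to 6016 on ventricular arrays (medians 0.55, 1.30, 1.37 and 0.87). For smooth muscle and pericytes the sums were 7724 to 11708 on Purkinje arrays and 5395 to 7688 on ventricular arrays (medians 1.01, 1.84, 1.39 and 1.28), and Cnn1 was below the signal limit. These sums include Des, the member that was lower, at 2215 to 2890 on Purkinje arrays and 2944 to 4225 on ventricular arrays. Of 4 immune markers tested Lyz2 was higher, and the list summed to 282.7 to 909.6 on Purkinje arrays and 295.9 to 407.7 on ventricular arrays. The immune markers Ptprc, Fcgr1, Cd14 and Cd3e, both red blood cell markers with a probe set (Hba-a1 and Alas2), S100b of the Schwann cell list and the adipocyte markers Adipoq and Lep lay below the limit. Of 3 Schwann and neural markers tested Kcna1 was higher (1.90, limma adjusted p = 0.0362), and the list summed to 108.5 to 227.7 on Purkinje arrays and 81 to 102.5 on ventricular arrays. The 1 adipocyte marker tested, Fabp4, was higher (0.63, limma adjusted p = 0.00248), at 3481 to 7584 on Purkinje arrays and 2341 to 6260.4 on ventricular arrays.

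The part of these cells in the metabolic differences was not tested. The median difference of the 20 cardiomyocyte markers was -0.11, and 0.04, -0.0013, -0.29 and -0.22 in hearts 1 to 4. In each heart the medians of all 3 metabolic groups were below it. The markers also differed from these groups in signal level, with ventricular signals from 2169.6 (Ckm) to 13753.3 (Myl3). Ckm, the dimmest marker, had a difference of -0.64, while Tcap, at 2653.4 to 5237.1 on ventricular arrays, had -0.04. The part of signal level in the gap between markers and metabolic groups was not tested.

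**Figure D4:**
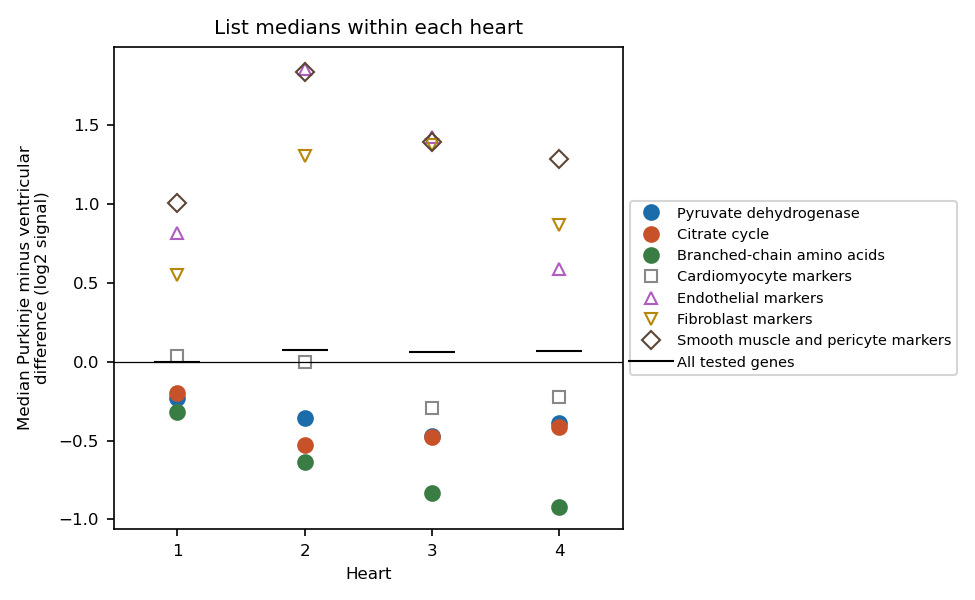
Median Purkinje minus ventricular difference (y axis, log2 signal) of the 3 metabolic groups (filled circles), of cardiomyocyte, endothelial, fibroblast, and smooth muscle and pericyte markers (open symbols) and of all tested genes (bars) within each heart (x axis). The metabolic groups lie between -0.20 and -0.92, below the cardiomyocyte markers in every heart, and the endothelial, fibroblast and smooth muscle lists lie above 0.5. The cardiomyocyte markers and the metabolic groups also differ in signal level.

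Probe sets of one gene did not always give one answer. Of the 33 genes 20 had at least 1 other probe set above the signal limit, 28 in all. Of these 28, 21 had a negative difference and 7 a positive one; 12 were lower in the fit over all probe sets, where 6.34% of the 22887 were, and none was higher. The positive ones were 0.06 and 1.00 for Auh, 0.44 for Dlst, 0.32 for Idh2, 0.11 for Idh3b, 0.65 for Sucla2 and 0.00094 for Pdp1. None of these passed, and their mean log2 signals ran between 4.41 (Sucla2) and 7.99 (Idh3b). Those that were lower included 2 further probe sets of Mccc2 (-0.51 ± 0.15 and -0.82 ± 0.15) and 1 of Pdha1 (-0.41 ± 0.09). Negative but not past the test were those of Pdhb (-0.14), Idh3a (-0.22 and -0.14), Idh3g (-0.14), Ogdh (-0.52), Mccc1 (-0.22) and 1 of Dlst (-0.10), beside 1 of Cs (-0.26) and 1 of Idh3b (-0.54) given above. For Auh the probe set at 1.00 ± 0.47 had signals of 18.2 to 59.4 on Purkinje arrays and 9.6 to 33.7 on ventricular arrays. The main probe sets of Hibadh, Hibch, Idh3b and Suclg2 are of the type that can match several transcripts, and that of Dlat is of the type that can cross-hybridise.

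**Figure D5:**
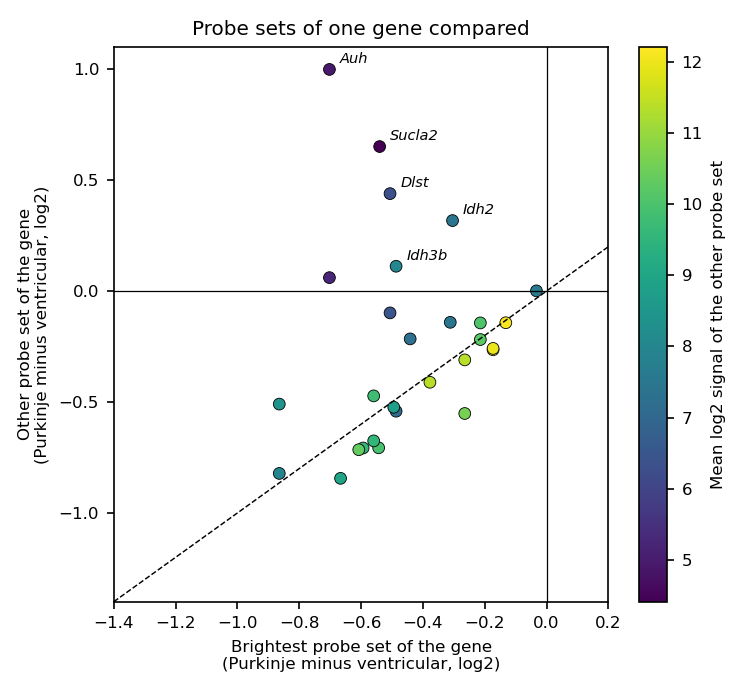
Difference (log2, Purkinje minus ventricular) of the 28 other probe sets (y axis) against that of the brightest probe set of the same gene (x axis), coloured by the mean log2 signal of the other probe set, with a dashed line of equality. The points above 0 on the y axis have mean log2 signals of 7.99 or less.

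Around these 33 genes, a list held 46 symbols for other genes of the same pathways, their cofactor enzymes and their transporters. Mut and Mmut in it name the same gene, and 39 genes were tested. Of these 16 were lower, where 7.48% of all tested genes were. None was higher, also none at an adjusted p under 0.05 by any fit tried. At an unadjusted p under 0.05 Pdk3, Me2 and Pck2 were higher, where 2123 of all 12318 genes were. The median difference of the 39 was -0.34. Without the heart as a block 3 of the 39 were lower (Mpc1, Echs1 and Hsd17b10), where 1.02% of all genes were. Bdh1, a mitochondrial ketone body dehydrogenase, had the largest difference, -1.79 ± 0.32, and was at 973.3, 531.3, 236.5 and 131 on Purkinje arrays, against 1624.5, 1056.5, 1023 and 1315 on ventricular arrays. None of the 4 succinate dehydrogenase subunit genes passed (named after their values were seen), with differences of -0.15 ± 0.08 for Sdha, -0.31 ± 0.10 for Sdhb, -0.21 ± 0.09 for Sdhc and -0.15 ± 0.08 for Sdhd (limma adjusted p from 0.0536 to 0.248). Mdh2, the mitochondrial malate dehydrogenase, also named after its values were seen, did not pass (-0.06 ± 0.08, limma adjusted p = 0.692). It was lower in 2 of 4 hearts. In the pyruvate branch Mpc1, a subunit of the mitochondrial pyruvate carrier (-0.54 ± 0.10), and Pdp2, another phosphatase of pyruvate dehydrogenase (-1.11 ± 0.19), were lower. Pdk4 and Pdpr, named after their values were seen, did not pass (-0.24 ± 0.09 and -0.36 ± 0.14, limma adjusted p = 0.105 and 0.0890).

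Branched-chain breakdown also involves Hsd17b10 (-0.77 ± 0.12), Echs1 (-0.66 ± 0.14), Acad8 (-0.71 ± 0.17) and Acadsb (-0.41 ± 0.12), dehydrogenases and a hydratase of the acyl-CoA steps, and Ppm1k (-0.50 ± 0.12), the phosphatase that activates the branched-chain complex; all 5 were lower. Mcee (-0.59 ± 0.11) and Mmut (-0.38 ± 0.10), which take propionyl carbon to succinyl-CoA, were lower too, as was Mmaa (-0.55 ± 0.14). The rest of the 16 were Lipt2 (-0.79 ± 0.22) and Glrx5 (-0.45 ± 0.09), which act in lipoate supply and iron-sulfur cluster transfer, Glud1 (-0.58 ± 0.12), Idh1 (-0.52 ± 0.14) and Sdhaf2 (-0.54 ± 0.12), an assembly factor of succinate dehydrogenase. Of genes that did not pass, the largest differences were in Pdk3 (1.32 ± 0.58), Me2 (0.71 ± 0.25), Pcx (-0.70 ± 0.23), Pck2 (0.70 ± 0.31), Hlcs (0.53 ± 0.30) and Lipt1 (-0.43 ± 0.34). Pdk3 averaged a signal of 34.0 on Purkinje arrays and 18.8 on ventricular arrays, where the signal limit was 19.9.

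RefSeq promoter windows of the GRCm38.p6 build, from 250 bases before to 50 after each transcription start, were available for 30 of the 33 genes. They were searched on both strands for 4 motifs of factors known to act on mitochondrial or growth genes: TNAAGGTCA for oestrogen-related receptors, the motif of nuclear respiratory factor 1 (its letters stand in capitals below), CCGGAAG for ETS factors such as GABP, and the E-box CACGTG. The oestrogen-related receptor motif was in none of the 30 genes' windows and in 1.43% of all 27025 genes. The nuclear respiratory factor motif was in 4 of the 30 (13.3%; Dld, Sucla2, Hibadh and Pccb), against 5.19% of all genes, the ETS motif in 4 (13.3%; Idh3b, Idh3g, Dlst and Auh), against 9.93%, and the E-box in 3 (10.0%; Pdk2, Ogdh and Mccc2), against 8.09%. No gene of the 30 held more than 1 of these motifs. The 3 genes shown have the nuclear respiratory factor motif before the start, and all 3 were lower in Purkinje cells; the lines give the 250 bases before the start, 5′ to 3′ on the gene's strand, with the motif in capitals. They lie at chr14:73552536-73552785 on the plus strand for Sucla2, chr6:52640301-52640550 on the minus strand for Hibadh and chr9:101034885-101035134 on the minus strand for Pccb.
Sucla2: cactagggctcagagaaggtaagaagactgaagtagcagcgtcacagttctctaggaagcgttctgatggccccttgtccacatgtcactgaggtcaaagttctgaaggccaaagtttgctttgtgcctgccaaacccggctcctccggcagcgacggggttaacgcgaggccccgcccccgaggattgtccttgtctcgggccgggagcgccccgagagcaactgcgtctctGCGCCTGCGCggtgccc
Hibadh: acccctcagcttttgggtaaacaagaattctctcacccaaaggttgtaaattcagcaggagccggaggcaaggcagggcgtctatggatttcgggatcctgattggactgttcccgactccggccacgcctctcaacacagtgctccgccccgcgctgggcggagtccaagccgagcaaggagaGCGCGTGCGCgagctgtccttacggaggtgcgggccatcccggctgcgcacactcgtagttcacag
Pccb: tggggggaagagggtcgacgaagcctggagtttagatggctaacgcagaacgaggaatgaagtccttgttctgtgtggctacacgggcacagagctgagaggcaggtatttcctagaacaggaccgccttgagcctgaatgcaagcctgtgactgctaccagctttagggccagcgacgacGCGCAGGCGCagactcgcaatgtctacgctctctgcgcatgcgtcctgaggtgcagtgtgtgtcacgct
The motif starts 17 bases before the start site in Sucla2, 66 in Hibadh and 69 in Pccb, as read on the gene's strand. In Sucla2 and Hibadh the capitals are a match to its reverse complement, and in Pccb to the motif as written. A match describes the letters of the window only.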

How the data were processed

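Total RNA of sorted cells was amplified with Nugen Ovation Pico WTA System v2 and hybridised to Affymetrix arrays, per the labels' protocols. The deposited signal intensity values were made by the authors with MAS5, per the submitters' processing notes, and its version is not given in the sources used here. The deposited ratio and p-value per probe set equal the ratio of means and a paired, two-sided test on unlogged signals, and were used only as an alternative. Values of log2 were computed here from the deposited signals, with 0 set to 0.1.

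Of 45101 probe sets, 34958 have 1 gene symbol in the platform annotation, 932 several and 9211 none. Each gene was represented by its brightest probe set (mean log2 over all arrays), tested where that mean exceeded the 40th percentile over probe sets (signal 19.9), which left 12318 of 18193 genes. limma 3.58.1 in R 4.3.3 (lmFit, then eBayes with a mean-variance trend) was fitted with the heart as a block and adjusted by Benjamini-Hochberg over all tested genes, at 0.05. Arrays with the same number were taken as pairs, as in the authors' paired test, which the labels do not state. Correlations of deviations from group means were 0.38, 0.23, 0.27 and 0.27 for same-numbered arrays 1 to 4. They come from the same data and do not settle the pairing. Different numbers also correlated, at 0.22 and 0.21 between 3 and 4, and at 0.20 (Purkinje 2 with ventricular 1) and 0.09 (Purkinje 1 with ventricular 2), while every correlation of 1 or 2 with 3 or 4 was negative. The number of arrays limits the precision. Alternatives changed the block, scaling, filter, probe set choice, value added before log2, variance model, test and hearts. The fit of all probe sets, the comparison with genes at least as bright as Bckdhb and the within-heart values were added after seeing the data. That comparison sets a floor and does not match genes on signal.

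The 33 genes and all lists were chosen with earlier results of these data known. The text names every one of the 33, every other pathway gene or regulator that passed, and up to 6 of the rest of each with the largest difference; exceptions are marked. Promoter sequences are RefSeq's, build GRCm38.p6, matched by symbol. No separate test of gene sets was run.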

Additional observations from a re-analysis of the deposited data

Results flagged for a closer look

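In 6 groups of 4 arrays 1 array stood apart from the rest by Dixon's test, of 132 groups tested; chance gives about 1 in 20. Of the 33 genes, 3 had a low ventricular replicate 1. Pdp1 was at 227.6 there, against 495.1, 504.4 and 524.9 on the other ventricular arrays. Mccc2 was at 600.6, against 900, 931.5 and 957.6. Hibch was at 1135, against 1789, 1790.2 and 1848.5. In these 3 genes heart 1 gave the highest or second highest difference of the 4 hearts.

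In ventricular replicate 2, the regulators Esrra and Nrf1 were low, at 177.8 and 39.6, and Esrrb was high, at 192.6.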

How the results depend on the processing

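No alternative made any of the 33 genes higher at an adjusted p under 0.05. Under the mean of probe sets 1 citrate cycle gene was higher at an unadjusted p under 0.05, where 2236 of all 12318 genes were. The count of 27 lower genes was between 18 and 32 under the 2 other scalings, the 2 other filters, the mean of probe sets, 16 added before log2 and a robust trend. Without the replicate block (the heart) 10 were lower (1 pyruvate dehydrogenase, 2 citrate cycle, 7 branched-chain), with 3 other pathway genes, 0 regulators, and 126 lower and 239 higher of all genes. Without the variance trend 0 of the 33, of each group, of the other pathway genes and of the regulators were lower, with 1 lower and 138 higher of all genes; the authors' paired test gave 0 everywhere after adjustment, where the smallest adjusted p among the 33 was 0.184 (0.0603 without the trend). Leaving out each heart in turn gave 14 to 26 lower genes of the 33 (pyruvate dehydrogenase 1 to 4, citrate cycle 4 to 9, branched-chain 8 to 13), 7 to 20 other pathway genes, 0 to 5 regulators, and 277 to 1081 lower and 534 to 1334 higher of all genes. Hearts 1 and 2 alone gave 2 of the 33 (0 pyruvate dehydrogenase, 2 citrate cycle, 0 branched-chain), 2 other pathway genes, 0 regulators, and 38 lower and 325 higher of all genes. Median centring gave 3812 lower and 688 higher of all genes (15.3% of calls higher, against 56.3%), 31 other pathway genes and 10 regulators; it moved the median of all genes to -0.35 and that of the 33 to -0.94, which is -0.59 relative to all genes, as before (-0.32 after quantile normalization). Quantile normalization left 2 pyruvate dehydrogenase genes lower, and the mean of probe sets 4 citrate cycle genes. Signs turned under the mean of probe sets for Idh2 (0.0068), Dld (0.17), Sucla2 (0.61), Auh (0.10), Pcca (0.77), Lipt1 (0.31) and Esrra (0.24). Dld and Pcca have no other probe set above the signal limit, so there the mean takes in one below it. For Sucla2 and Auh the mean takes in other probe sets both above and below the limit. Signs also turned after quantile normalization for Idh3g (0.018) and Nrf1 (-0.0861), and after median centring for Nrf1 (-0.17). Without heart 2 they turned for Pdp1 (0.10), Nrf1 (-0.011) and Esrrb (0.0030), without heart 3 for Pdp1 (0.082) and Lipt1 (0.023), and without heart 4 for Esrra (0.018). In hearts 1 and 2 alone they turned for Lipt1 (0.24) and Esrra (0.098), and in hearts 3 and 4 alone for Pdp1 (0.0005) and Nrf1 (-0.018). Over the fits without each heart these genes ranged from -0.17 to 0.10 (Pdp1), -0.76 to 0.023 (Lipt1), -0.011 to 0.52 (Nrf1), -0.26 to 0.0030 (Esrrb) and -0.44 to 0.018 (Esrra). The causes were not tested.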

Other observations

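Of 14 transcriptional regulators of mitochondrial and amino acid metabolism, all tested, 5 were lower in Purkinje cells and none was higher by limma with the heart as a block, also at an unadjusted p under 0.05; over all genes 7.48% were lower. Klf15, a factor known to act on branched-chain amino acid genes in muscle, had signals of 226.8, 233.4, 286.1 and 374.8 on Purkinje arrays, against 338.5, 398.9, 573.8 and 522.4 on ventricular arrays (log2 difference -0.71 ± 0.14, limma adjusted p = 0.00646). The groups overlapped through Purkinje replicate 4. Perm1 (-0.51 ± 0.11), the coactivator Ppargc1a (-0.47 ± 0.11), the fatty acid receptor Ppara (-0.52 ± 0.12) and Tfam (-0.57 ± 0.16), which maintains mitochondrial DNA, were lower too. Of these 5, Ppargc1a alone had groups that did not overlap. Without the heart as a block none of the 14 passed. At an unadjusted p under 0.05, 5 were lower, where 1133 of all 12318 genes were.

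Of those that did not pass, the largest differences were in Ppargc1b (-0.40 ± 0.14), Hif1a (-0.34 ± 0.12), Gabpa (-0.25 ± 0.14), Nrf1 (0.24 ± 0.29), Esrrb (-0.17 ± 0.20) and Esrra (-0.15 ± 0.21). The last 3 each changed sign under at least 1 alternative.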
